A study of Rattus norvegicus with 16 samples.

Results

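The response of the renal outer medulla to 14 days of daily dosing with 2-amino-4-nitrophenol (ANP), a nitroaromatic amine used in hair dyes, was read from 6 of the 16 arrays of a dosing study. The arrays were chosen by their label of day 14, and all 61657 non-control probes on them were used, of which 27460 could be named as 15284 genes. The 3 treated arrays came from 3 male Sprague-Dawley rats gavaged with ANP in corn oil at 750 mg/kg/day, and the 3 vehicle arrays from 3 rats given corn oil alone. All were outbred Crl:CD animals, 5 weeks old at the first dose, and formed part of larger dose groups. Each array held Cy3-labelled RNA of 1 animal, from dissected outer medulla, so a value is an average over all cells of that tissue. The p-values measure the spread between animals within a group, estimated together from these 6 arrays and the 6 of day 28. The other 10 arrays are 6 of day 28, from other animals of the same design, and 4 of days 1 and 7, each a pool of 3 animals.

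The outer medulla holds the straight (S3) segment of the proximal tubule, the thick ascending limb and the outer medullary collecting duct, in a zone that works at low oxygen supply. The S3 segment takes up organic anions and drugs from the blood and conjugates them, and is a frequent site of toxic tubular injury. Cells that meet electrophiles or oxidants free the transcription factor NRF2, which raises reductases, glutathione enzymes and export pumps, while damaged tubule cells shed or secrete markers such as KIM-1 (Havcr1), clusterin (Clu) and lipocalin 2 (Lcn2).

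Levels are given as the log2 of a probe's processed signal minus the log2 of its array's 75th percentile, so 0 is the signal at that percentile and 1 unit is a doubling. They are compared between arrays for 1 probe, never between genes. The 75th percentile lay between 897 and 982 on the 6 arrays, from 65.7% to 67.7% of the probes were well above background, and Pearson's r between 2 arrays, taken over genes, lay between 0.984 and 0.992. Precision is limited by having 3 arrays a group. Umod (uromodulin of the thick ascending limb) read 9.30, 9.29 and 9.24 on the vehicle arrays and 9.34, 9.18 and 9.27 on the ANP arrays, and Slc7a13, a transporter of S3 cells, 8.52, 8.48 and 8.43 and 8.45, 8.16 and 8.33. Both were far above background on all 6.

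Of 11853 genes tested, 43 were higher with ANP (0.363%) and 14 lower (0.118%) by limma at an adjusted p under 0.05. After normexp background correction and quantile normalization the counts were 70 and 51, and the log2 ratios of 11 of the 43 and 3 of the 14 genes shrank by over 1.5 times, with the smallest at 0.14 for Prrt4 and -0.51 for Qrfpr. From the 6 arrays of day 14 alone 12 and 8 genes passed, and 10 of the 57 calls remained. The log2 ratios of all genes had a median of 0.01, and 52.3% were above 0. At an unadjusted p under 0.05 there were 1589 genes. The 43 increases ran from 1.37-fold to 10.2-fold as measured and the 14 decreases from 1.36-fold to 8.67-fold, genes that were dim in 1 group included, and 25 and 10 of them reached 2-fold. In all 57 genes the 3 ANP arrays lay on one side of the 3 vehicle arrays, as they did for 18.2% of all genes. Other probes of the same genes had the same sign, 17 of 17 for the increases and 11 of 11 for the decreases, though that of Sod2 was near 0. They were read on the arrays by which the genes were chosen, so they add no other animals. No such share over all genes is given. The increases held few genes of the lists below. Higher were 2 of 22 reductase, 1 of 26 NRF2, 1 of 22 glutathione S-transferase and 1 of 34 amino acid stress genes. So were 1 of 25 uncoupling and lipid droplet genes and 1 of 24 claudin and connexin genes. Of 14 neuronal and synaptic genes 1 was higher and 3 were lower. On the lower side stood structural, receptor, chemokine and defensin genes.

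**Figure D1:**
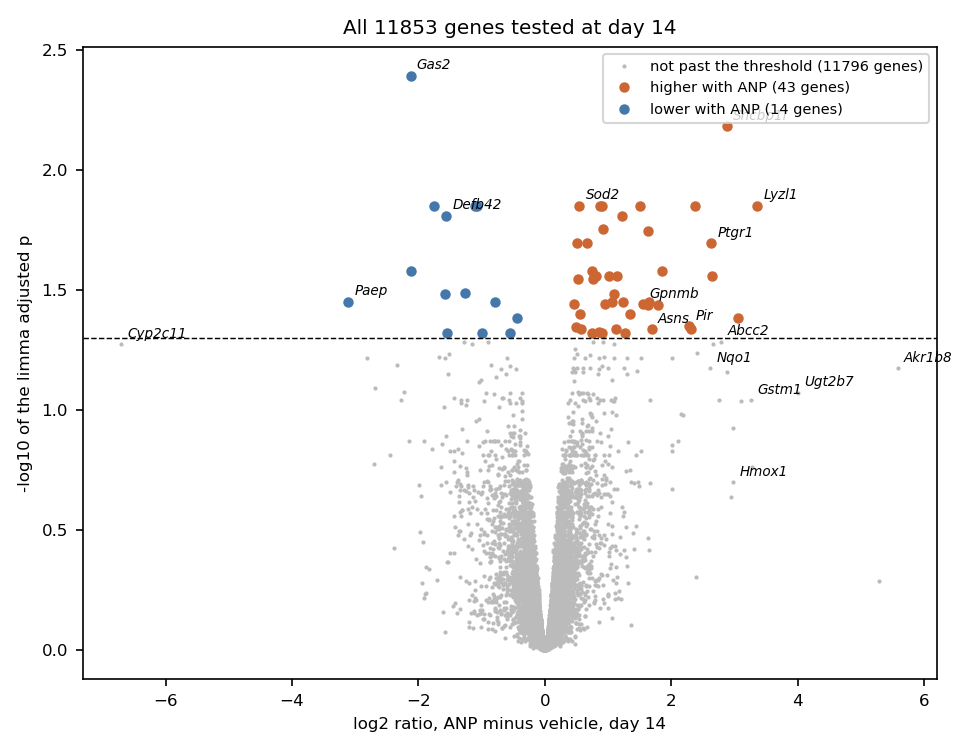
Each point is a gene at day 14, with its log2 ratio of ANP to vehicle on the x axis and -log10 of the limma adjusted p on the y axis; the dashed line is an adjusted p of 0.05. The 43 higher and 14 lower genes lie above the line, and several of the widest ratios, such as Cyp2c11 and Akr1b8, lie below it.

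Enzymes that reduce reactive carbonyls and quinones held 2 of the increases. Ptgr1, which reduces reactive alkenals such as 4-hydroxynonenal and inactivates leukotrienes and prostaglandins, read 1.68, 1.16 and 1.24 on the vehicle arrays and 3.48, 4.29 and 4.20 on the ANP arrays. All ANP animals were well above all vehicle animals. With 3 arrays in each group the gene rose 6.18-fold, a log2 ratio of 2.63 ± 0.37 (limma adjusted p = 0.0201). Here and below, the value after ± is the SE of the log2 ratio. Akr7a3, a reductase of aflatoxin dialdehyde, read 8.13, 8.12 and 7.99 with vehicle and 8.96, 8.86 and 8.98 with ANP. The arrays of each group lay close together, and Akr7a3 rose 1.81-fold (0.85 ± 0.15; limma adjusted p = 0.0472). Of the 22 reductase, dehydrogenase and epoxide hydrolase genes tested, these 2 rose, none fell, 13 were above 0, and the median was 0.03, against 0.01 over all genes.

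Members that did not pass include the widest rise among named genes. Akr1b8, an aldo-keto reductase, read 1.29, 0.94 and -2.01 with vehicle and 5.26, 6.03 and 5.67 with ANP. Vehicle replicate 3 lay far under its group, and the log2 ratio of 5.58 ± 1.12 had a limma adjusted p of 0.0668. Nqo1, the quinone reductase that is the classic NRF2 target, read -1.01, -0.83 and -1.12 with vehicle and 1.17, 2.20 and 1.51 with ANP, again with no overlap (log2 ratio 2.62 ± 0.53; limma adjusted p = 0.0668). Ephx1, microsomal epoxide hydrolase, was at 0.88 ± 0.38 (limma adjusted p = 0.342). Akr1b10 differed among the ANP arrays. ANP replicate 1 shared the slide of the vehicle arrays and the other ANP arrays did not, so animal and slide cannot be told apart. It read -1.90, -1.75 and -3.12 with vehicle and -1.0, -5.30 and -5.61 with ANP, so ANP replicate 1 was above and the other two ANP arrays below all vehicle arrays (log2 ratio -1.71 ± 1.0; limma adjusted p = 0.51).

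Among NRF2 regulators and antioxidant targets, Pir alone passed. Pir encodes pirin, an iron-binding nuclear protein whose gene is a known NRF2 target. It read 0.69, -0.02 and -0.02 with vehicle and 2.27, 2.67 and 2.56 with ANP, a rise of 4.87-fold (2.28 ± 0.40; limma adjusted p = 0.0446), and another of its probes passed when all probes were tested together. Of 26 genes tested, 21 were above 0, with a median of 0.23. Groups did not overlap for 10 genes that were higher and 2 that were lower, where over all genes 10.3% were higher and 7.92% lower without overlap.

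Haem oxygenase 1 (Hmox1), which degrades haem, read -1.83, -1.90 and -2.09 with vehicle and 0.36, 1.74 and 1.0 with ANP. Its vehicle arrays were close together and its ANP arrays spread widely, and it did not pass (log2 ratio 2.97 ± 0.90; limma adjusted p = 0.199). Transketolase (Tkt) of the pentose phosphate pathway was at 0.81 ± 0.19 (limma adjusted p = 0.111). Sulfiredoxin (Srxn1) was at 1.18 ± 0.50 and glutathione peroxidase 2 (Gpx2) at 1.15 ± 0.82, neither past the threshold. The subunits of glutamate-cysteine ligase, which makes the precursor of glutathione, had group ratios near 0, with -0.02 ± 0.11 for Gclc and 0.01 ± 0.22 for Gclm. These 2 signs turned under other settings. Gclm was at -0.30 without ANP replicate 1 and at 0.24 without ANP replicate 3, and reached 0.62 over all settings.

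**Figure D2:**
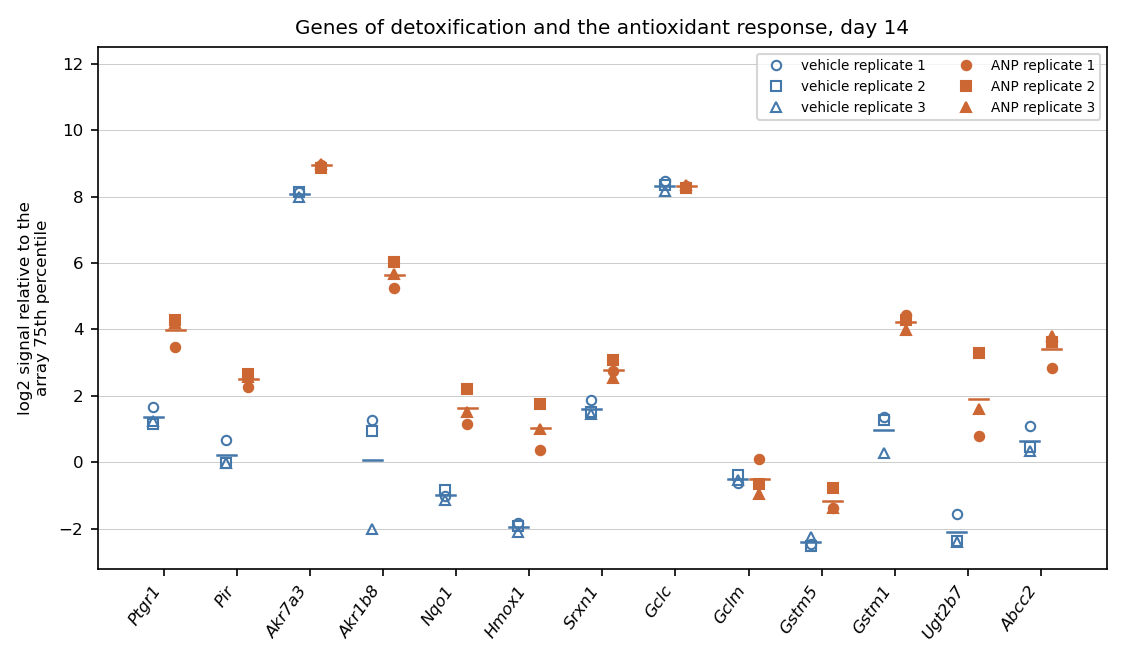
Log2 signal relative to the array's 75th percentile (y axis) for genes of detoxification and the antioxidant response at day 14; open blue marks are vehicle arrays, filled orange marks ANP arrays, shapes the replicates, and lines the means of 3. The marks of Gclc and Gclm overlap between groups, while those of the other genes shown do not, and levels are to be read within a gene.

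Conjugating enzymes followed. Gstm5, a mu-class glutathione S-transferase, read -2.46, -2.50 and -2.25 with vehicle and -1.36, -0.77 and -1.36 with ANP and rose 2.36-fold (1.24 ± 0.20; limma adjusted p = 0.0353). Gstm1 of the same class read 1.36, 1.28 and 0.28 with vehicle and 4.44, 4.28 and 4.0 with ANP, a wider shift that did not pass (3.27 ± 0.73; limma adjusted p = 0.0909). Mu-class genes are close copies of each other, so a probe may take up signal from a neighbour. Of 22 glutathione S-transferase genes tested, 16 were above 0 with a median of 0.45. Set against the mean of the vehicle arrays, the medians over the list on the ANP arrays were 0.59, 0.39 and 0.46, and each vehicle array against the other two gave 0.34, -0.03 and -0.36. Gstm7 was at 1.45 ± 0.39 and Mgst2 at 0.97 ± 0.29, both short of the threshold. The chosen probe of Gsta3 was at 0.86 ± 0.17, while another of its probes was at 2.40 ± 0.28 and passed when all probes were tested together (limma adjusted p = 0.0346). These Gsta3 probes differed in size but not in sign.

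The glucuronosyltransferase Ugt2b7, of a family that glucuronidates drugs and steroids, read -1.54, -2.36 and -2.40 with vehicle and 0.79, 3.29 and 1.61 with ANP. ANP replicate 2 stood highest, and the log2 ratio of 4.0 ± 0.87 did not pass (limma adjusted p = 0.0844). Ugt2b15, Ugt2b35 and Ugt2b37 were at 2.19, 2.02 and 2.01 (limma adjusted p from 0.105 to 0.148), with the lowest vehicle value of each in replicate 3. Over the settings Ugt2b35 ran from 1.46 to 2.52 and Ugt2b37 from 1.45 to 2.51. Whether their probes take up the same signal was not tested. None of the 14 glucuronosyltransferase and sulfotransferase genes passed.

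The export pump gene Abcc2 (MRP2, the apical carrier of glutathione and glucuronide conjugates) read 1.08, 0.46 and 0.35 with vehicle and 2.85, 3.61 and 3.80 with ANP. Its ratio of 2.79 ± 0.51 fell just short (limma adjusted p = 0.0518). Abcb1b, a P-glycoprotein gene, was at 1.66 ± 0.51 and Abcc4 at 0.80 ± 0.37, while the 24 pump genes had a median of 0.03. Among 34 cytochrome P450 genes none passed, and 12 were above 0. Cyp2c11, the male-type P450 of rat liver and kidney, had the widest fall among named genes. It read 1.32, 3.99 and 2.99 with vehicle and -3.28, -4.44 and -4.08 with ANP, so the vehicle animals differed among themselves and the ANP animals lay far under them (-6.70 ± 1.26; limma adjusted p = 0.0531).

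The core of the antioxidant response element, to which NRF2 binds, was searched on both strands as TGACNNNGC in RefSeq promoters of GRCr8, from 250 bases before to 50 after the gene start. Matches can share letters with the AP-1 site TGANTCA, which was not counted apart. Of the 43 higher genes 33 had a promoter in the table and 9 held a match (27.3%), as did 4 of 13 lower genes (30.8%), 14.3% of the 9675 tested genes with a promoter and 12.2% of all 27457 promoters. The amino acid response core TGATGNAA was found in 1 of the 33, that of Ripor2, and in 2.37% of the tested genes. These shares are descriptions. Pir and Gstm5, each with 2 matches, are shown over the 150 bases before the start, in the direction of transcription, with the matches to TGACNNNGC or its reverse complement in capitals, and the 7 other genes over the match and its flanks.
Pir (chrX:33851050-33851199, minus strand): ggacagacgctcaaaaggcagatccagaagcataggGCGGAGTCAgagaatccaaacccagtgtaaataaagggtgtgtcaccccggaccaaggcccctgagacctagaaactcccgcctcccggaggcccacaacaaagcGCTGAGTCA
Gstm5 (chr2:198219619-198219768, plus strand): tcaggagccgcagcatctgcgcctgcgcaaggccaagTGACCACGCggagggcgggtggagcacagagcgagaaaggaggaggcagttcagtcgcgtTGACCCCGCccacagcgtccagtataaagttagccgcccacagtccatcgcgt
Ceacam16 (chr1:88652901-88652929, minus strand): aggaggcctgGCCGGGTCAtggcccctgg
Padi1 (chr5:158435155-158435183, minus strand): atgacttaggTGACTGGGCgtggagccag
Panx2 (chr7:122018850-122018878, plus strand): ttttttttctGCAAAGTCAtcgccaacgc
Hmga1 (chr20:5613450-5613478, plus strand): ccgcccccggTGACACGGCtggcgcgggc
Styxl1 (chr12:26544025-26544053, plus strand): tctcgacttcGCTTTGTCAgatcgttcct
Sod2 (chr1:50050185-50050213, minus strand): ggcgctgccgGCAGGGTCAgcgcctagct
Spns1 (chr1:190380093-190380121, minus strand): ctagggtgctTGACTTCGCcaatttgcga

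Asparagine synthetase (Asns), a target of the amino acid stress factor ATF4, read -0.11, -0.58 and -0.77 with vehicle and 0.81, 0.97 and 1.83 with ANP. ANP replicate 3 was highest, and the gene rose 3.23-fold (1.69 ± 0.30; limma adjusted p = 0.0459). It was the single gene that passed of 34 in the list of amino acid synthesis and the integrated stress response, whose median was 0.22 with 23 above 0. Atf3 was at 1.52 ± 0.40, the proline synthesis gene Pycr1 at 1.48 ± 0.46, Nupr1 at 1.28 ± 0.62, the mitochondrial folate enzyme Mthfd2 at 1.04 ± 0.34 and Trib3 at 0.57 ± 0.45, none past the threshold. Of 19 cytosolic aminoacyl-tRNA synthetase genes, which charge tRNAs with amino acids, 16 were above 0 with a median of 0.16, led by Aars1 at 0.37 ± 0.16. None passed.

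Endoplasmic reticulum chaperones lay on the other side. Of 20 tested, 1 was above 0, and the median was -0.20, with none past the threshold. Against the vehicle mean the medians of the ANP arrays were -0.22, -0.27 and -0.05. Each vehicle array against the other 2 gave 0.11, -0.10 and -0.05, so ANP replicate 3 lay within the vehicle range. Hsp90b1 (GRP94) read 3.51, 3.48 and 3.49 with vehicle and 2.81, 2.54 and 3.21 with ANP, nearly constant among vehicle animals and lower in each treated one (-0.64 ± 0.18; limma adjusted p = 0.174). Pdia6, a disulfide isomerase, was at -0.35 ± 0.11.

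Among 23 cytosolic heat shock genes Hspb8 rose. This small heat shock protein of chaperone-assisted autophagy read -3.71, -4.02 and -3.56 with vehicle and -2.17, -2.33 and -2.77 with ANP (2.53-fold; limma adjusted p = 0.0399). The inducible Hspa1a was at 1.13 ± 0.36, with values of -1.62, 0.20 and -1.05 on the ANP arrays against -2.34, -1.77 and -1.77 on the vehicle arrays, so that ANP replicate 2 stood highest.

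Sod2, the manganese superoxide dismutase of mitochondria, read 2.75, 2.65 and 2.64 with vehicle and 3.25, 3.14 and 3.28 with ANP and rose 1.46-fold (0.54 ± 0.07; limma adjusted p = 0.014). Its other probe was at 0.03, and the mean of both gave a log2 ratio of 0.29. Metap1d, the methionine aminopeptidase of mitochondria, rose 1.69-fold, and Slc48a1 (HRG1), which carries haem out of endosomes and lysosomes, 1.68-fold. Spns1, a lysosomal lysophospholipid transporter, rose 1.43-fold and the nucleotide sugar transporter Slc35d2 1.59-fold (limma adjusted p from 0.0201 to 0.0285 for these 4 genes). Cidea, a lipid droplet protein best known from brown fat, read 0.49, 0.59 and 0.34 with vehicle and 1.74, 2.09 and 2.50 with ANP. It rose 3.11-fold (1.64 ± 0.23; limma adjusted p = 0.0178), and another of its probes passed in the test of all probes. Ucp1, the uncoupling protein of brown fat, read -3.40, -3.84 and -3.65 and -4.0, -3.32 and -3.63, with a ratio of -0.02 ± 0.31 whose sign turned under other settings. Cidea was the single gene that passed of 25 uncoupling and lipid droplet genes (median 0.02). This median, and those of the neuronal and macrophage lists given further on, took the other sign after normexp and quantile normalization.

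Of 24 claudin and connexin genes, whose median was 0.13, 1 passed. Gjb5, a connexin and gap junction protein of stratified epithelia, read -4.11, -4.98 and -5.27 with vehicle and -2.14, -1.89 and -2.41 with ANP, and rose 6.23-fold (2.64 ± 0.40; limma adjusted p = 0.0276). Panx2, a large-pore channel related to the connexins, read 0.66, 0.73 and 0.75 with vehicle and 1.80, 1.36 and 1.71 with ANP and rose 1.88-fold (0.91 ± 0.12; limma adjusted p = 0.014). Gja1 (connexin 43) was at -1.2 ± 0.39, with vehicle values of -0.73, 0.91 and -0.19 and ANP values of -0.84, -1.07 and -1.68.

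Stra6l, a receptor for retinol-binding protein, read -1.31, -2.57 and -2.39 with vehicle and -0.17, -0.52 and -0.20 with ANP. Vehicle replicate 1 stood above its group, and the gene rose 3.46-fold (1.79 ± 0.30; limma adjusted p = 0.0366). Cxadrl1, named for its likeness to the coxsackievirus and adenovirus receptor of tight junctions, rose 2.33-fold (limma adjusted p = 0.0155).

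Gabbr2, a subunit of the GABA-B receptor, read -2.08, -3.47 and -2.92 with vehicle and -0.29, -0.53 and -0.73 with ANP. The vehicle animals differed from each other by more than 1 unit, the ANP animals by less, and the gene rose 4.94-fold (2.31 ± 0.41; limma adjusted p = 0.0459). Lynx1, which modulates nicotinic acetylcholine receptors, rose 1.87-fold, and the growth factor Nrg2, a ligand of ErbB receptors, 1.4-fold (limma adjusted p = 0.0477 and 0.0452). On the list of neuronal and synaptic genes Gabbr2 was higher while Nefm, Ppfia4 and Sorcs1 were lower, of 14 tested, and the median was -0.03.

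Ppm1j, a serine/threonine phosphatase, read -2.45, -3.42 and -3.65 with vehicle and -0.97, -0.75 and -0.70 with ANP. The ANP arrays lay close together, and the rise was 5.16-fold (2.37 ± 0.31; limma adjusted p = 0.014). Itpka, which phosphorylates inositol trisphosphate and bundles actin, read -1.55, -0.96 and -0.80 with vehicle and 0.66, 0.22 and 0.29 with ANP, a rise of 2.83-fold (1.5 ± 0.19; limma adjusted p = 0.014), and its other probe gave 1.49. Plek2, a pleckstrin of actin remodelling, rose 2.41-fold, the ubiquitin ligase Cblc 2.02-fold, Ripor2, an inhibitor of RhoA, 1.92-fold, Arhgap18, a GTPase-activating protein for RhoA, 1.42-fold and the pseudophosphatase Styxl1 1.68-fold (limma adjusted p from 0.0201 to 0.0477).

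**Figure D3:**
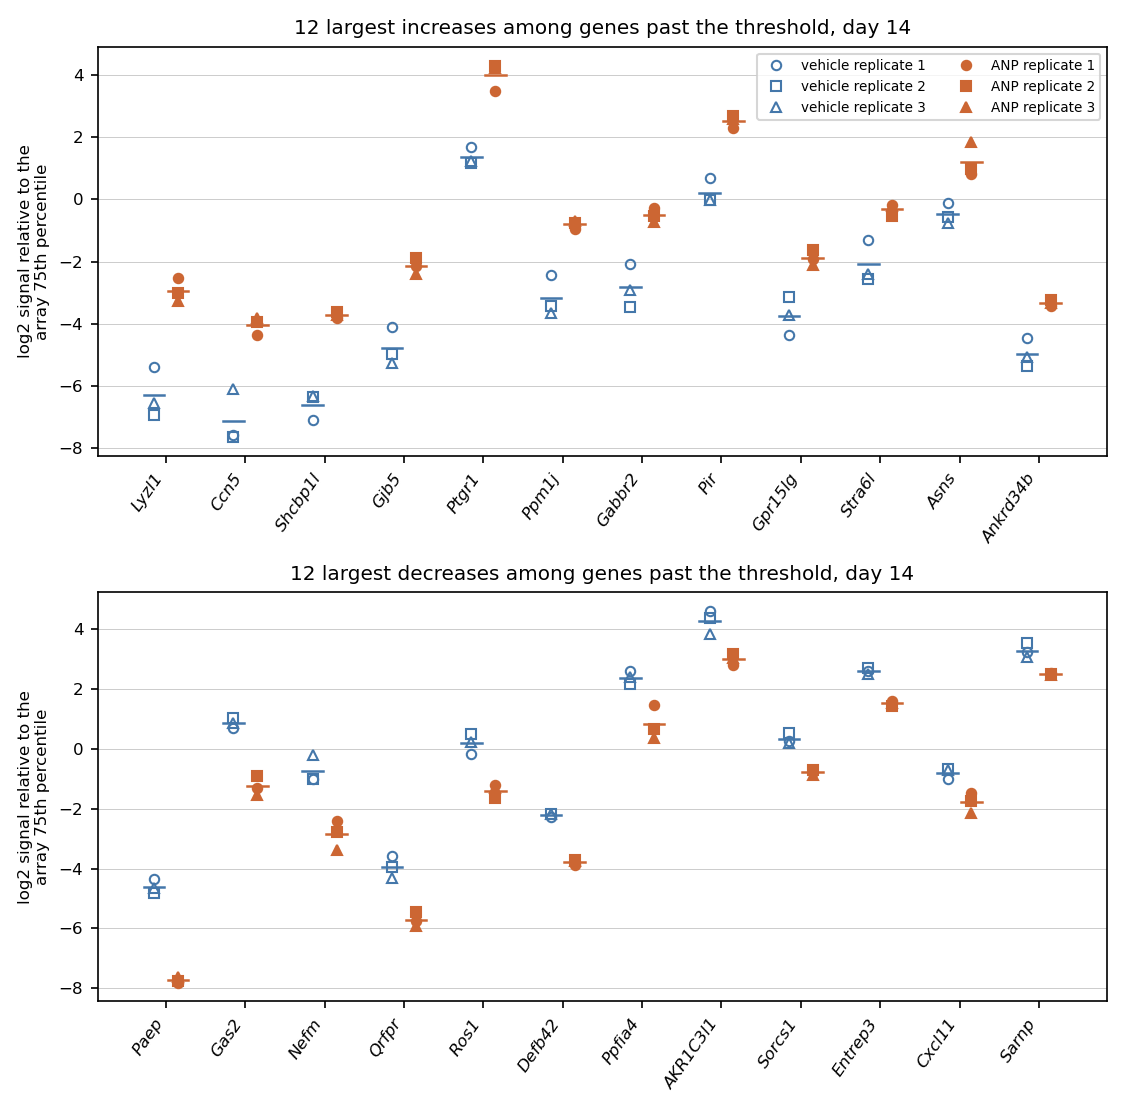
Log2 signal relative to the array's 75th percentile (y axis) on each of the 6 arrays for the 12 largest increases (top) and 12 largest decreases (bottom) past the threshold; open blue marks are vehicle arrays, filled orange marks ANP arrays, shapes the replicates, and lines the means of 3. No gene overlaps between groups, and Lyzl1, Ccn5 and Shcbp1l with vehicle and Paep and Qrfpr with ANP were not well above background.

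Of genes for secreted proteins, Lyzl1, a lysozyme-like protein, was not well above background on any vehicle array and read -2.53, -3.01 and -3.26 with ANP. Against a floor it was 6.34-fold higher (limma adjusted p = 0.014, from the values without a floor). The floor was the lowest signal well above background on each vehicle array, or the probe's own signal where that was higher. Such a fold is not a lower bound. With normexp and quantile normalization the log2 ratio of Lyzl1 was 1.18. Ccn5 (WISP2), a matrix-associated growth regulator, was on the same terms 3.08-fold higher, with -4.37, -3.96 and -3.80 on the ANP arrays (limma adjusted p = 0.0412). Its log2 ratio was 0.72 with normexp and quantile normalization. Gpr15lg, the ligand of the lymphocyte homing receptor GPR15, read -4.35, -3.15 and -3.72 with vehicle and -1.93, -1.63 and -2.12 with ANP and rose 3.59-fold (limma adjusted p = 0.0263). All of its ANP arrays were more than 1 unit above the highest vehicle array. Cst6 (cystatin E/M), an inhibitor of cysteine proteases of skin, rose 2.13-fold, and Ceacam16, a protein of the inner ear's tectorial membrane that was well above background on 2 of 3 vehicle arrays, 3.11-fold (limma adjusted p = 0.0327 and 0.0366).

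Hmga1, an architectural chromatin protein of proliferating cells, read -3.08, -2.85 and -2.79 with vehicle and -2.09, -2.05 and -1.98 with ANP, a rise of 1.83-fold (0.87 ± 0.11; limma adjusted p = 0.014). Padi1, which turns arginine into citrulline in keratins and other proteins, rose 1.89-fold, with its ANP values between -1.03 and -0.99. The lysine methyltransferase Smyd2 rose 1.46-fold and the RNA-binding Csdc2 2.18-fold (limma adjusted p = 0.0398 and 0.0459). Shcbp1l was not well above background with vehicle and read -3.80, -3.62 and -3.72 with ANP (limma adjusted p = 0.00656). It was 3.87-fold higher against the floor given for Lyzl1, and its log2 ratio was 0.87 with normexp and quantile normalization. Ankrd34b, an ankyrin repeat gene, read -4.47, -5.35 and -5.07 with vehicle and -3.42, -3.22 and -3.32 with ANP, 3.13-fold higher (limma adjusted p = 0.0353). Dap (death-associated protein), a suppressor of autophagy, rose 2.08-fold. The 4 remaining genes, Spopfm2l1, Lrrc51, Prrt4 and Cabcoco1, rose 2.2, 1.75, 1.49 and 1.37-fold (limma adjusted p from 0.0276 to 0.0459 over these 4 and Dap).

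On the lower side Gas2 stood first. This actin-associated protein, found in cells that have stopped growing, read 0.69, 1.05 and 0.88 with vehicle and -1.30, -0.91 and -1.55 with ANP and fell 4.37-fold (-2.13 ± 0.19; limma adjusted p = 0.00404). It was the smallest adjusted p of the 11853 genes. Nefm, the medium neurofilament chain, read -1.0, -1.0 and -0.20 with vehicle and -2.40, -2.77 and -3.37 with ANP and fell 4.33-fold (-2.12 ± 0.31; limma adjusted p = 0.0263). Vehicle replicate 3 was highest and ANP replicate 3 lowest. Ppfia4, a liprin of synaptic scaffolds, read 2.59, 2.16 and 2.39 with vehicle and 1.46, 0.65 and 0.38 with ANP, and Sorcs1, a sorting receptor, 0.27, 0.52 and 0.21 and -0.75, -0.69 and -0.86. They fell 2.93-fold and 2.15-fold (limma adjusted p = 0.0474 and 0.014), with ANP replicate 1 the least changed in Ppfia4.

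Ros1, a receptor tyrosine kinase, read -0.16, 0.49 and 0.22 with vehicle and -1.2, -1.65 and -1.32 with ANP, a fall of 2.99-fold (-1.58 ± 0.25; limma adjusted p = 0.0327). Qrfpr, the receptor of the neuropeptide QRFP, read -3.58, -3.96 and -4.33 with vehicle and was not well above background on any ANP array (limma adjusted p = 0.014). It was 3.16-fold lower against a floor set in the same way on the ANP arrays. With normexp and quantile normalization its log2 ratio was -0.51. Rgs2, which shortens signals of G protein-coupled receptors, read 0.15, 0.20 and 0.29 with vehicle and -0.50, -0.19 and -0.34 with ANP and fell 1.47-fold (limma adjusted p = 0.0477). Its arrays lay closer together in each group than those of Ros1.

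Defb42, a beta-defensin, read -2.27, -2.18 and -2.18 with vehicle and -3.87, -3.70 and -3.75 with ANP, a fall of 2.96-fold with little spread in either group (-1.57 ± 0.21; limma adjusted p = 0.0155). Cxcl11, an interferon-induced chemokine, read -1.0, -0.67 and -0.71 with vehicle and -1.49, -1.75 and -2.13 with ANP and fell 1.99-fold (-0.99 ± 0.18; limma adjusted p = 0.0477). The related Cxcl9 and Cxcl10 were at -0.78 ± 0.38 and -0.50 ± 0.30 with overlapping groups, and the interferon-induced Oasl2 at -1.04 ± 0.25 without overlap, none of them past the threshold. Paep (glycodelin), a lipocalin, read -4.34, -4.84 and -4.67 with vehicle and was not well above background with ANP (limma adjusted p = 0.0353). It was 2.19-fold lower against the same floor as Qrfpr, and its log2 ratio was -0.63 with normexp and quantile normalization.

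AKR1C3l1, an aldo-keto reductase of the 1C family, read 4.62, 4.38 and 3.85 with vehicle and 2.81, 3.18 and 3.05 with ANP. It fell 2.41-fold (-1.27 ± 0.20; limma adjusted p = 0.0326), against the rise of Akr7a3. Entrep3 read 2.60, 2.71 and 2.50 with vehicle and 1.60, 1.44 and 1.55 with ANP and fell 2.11-fold, and Sarnp, of the mRNA export machinery, read 3.25, 3.54 and 3.08 and 2.53, 2.50 and 2.48 and fell 1.72-fold (limma adjusted p = 0.014 and 0.0353). Synj2bp, of the mitochondrial outer membrane, fell 1.36-fold (limma adjusted p = 0.0413).

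Kidney injury biomarkers were uneven among the treated animals. Of 29 tested, Gpnmb passed, 17 were above 0 and the median was 0.22. Against the vehicle mean, the list median was -0.01, 0.72 and 0.03 on the ANP arrays, so replicate 2 stood apart. Gpnmb, a glycoprotein of phagocytes and stressed lysosomes, read -2.62, -2.27 and -2.85 with vehicle and -1.2, -0.51 and -1.38 with ANP and rose 2.93-fold (1.55 ± 0.26; limma adjusted p = 0.0361). Macrophage, myeloid and lysosomal genes gave no other call, and their median over 32 genes was -0.04.

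Havcr1 read -3.10, -4.02 and -3.60 with vehicle and -2.48, -0.08 and -1.86 with ANP, highest in replicate 2 and little above the vehicle range in replicate 1 (2.10 ± 0.54; limma adjusted p = 0.135). Clu read 2.82, 2.47 and 2.63 with vehicle and 3.63, 3.82 and 3.77 with ANP, even among the treated animals, and fell just short (1.1 ± 0.21; limma adjusted p = 0.0531). Lcn2 read -1.53, -1.96 and -1.02 with vehicle and -1.55, 0.47 and -0.45 with ANP, with overlap (0.99 ± 0.80; limma adjusted p = 0.666). Without overlap but short of the threshold, Timp1, an inhibitor of matrix proteases, was at 0.69 ± 0.23. Osteopontin (Spp1) was at 0.48 ± 0.46 and Krt19 at 0.94 ± 0.71, both with overlap. Fabp1, the fatty acid binding protein of proximal tubules, was at -0.99 ± 0.83, and Gc, the plasma vitamin D binding protein, read 2.72, 3.90 and 3.14 with vehicle and 1.95, 0.69 and 0.67 with ANP (-2.15 ± 0.54; limma adjusted p = 0.134).

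Cell cycle and DNA replication genes lay above 0 in 41 of 45 cases, against 52.3% of all genes, with a median of 0.34, and none passed. The groups did not overlap for 18 genes that were higher and 0 that were lower, against 10.3% and 7.92% of all genes. Against the vehicle mean the medians of the ANP arrays were 0.24, 0.55 and 0.21, again highest in replicate 2, and each vehicle array against the other two gave 0.20, 0.04 and -0.20. Birc5 (survivin) read -0.03, -0.60 and -0.03 with vehicle and 0.91, 0.73 and 0.71 with ANP (1.0 ± 0.20; limma adjusted p = 0.0668). The replication licensing factor Cdt1 was at 1.09 ± 0.25, Gins1 of the replication helicase at 0.93 ± 0.22 and Mcm6 of the same helicase at 0.81 ± 0.24, all without overlap. Of 23 p53 target genes none passed (median 0.11). The cell cycle inhibitor Cdkn1a was at -0.03 ± 0.14, a sign that turned under other settings, while Phlda3 was at 1.02 ± 0.28 and Bbc3 (PUMA) at 0.69 ± 0.18.

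**Figure D4:**
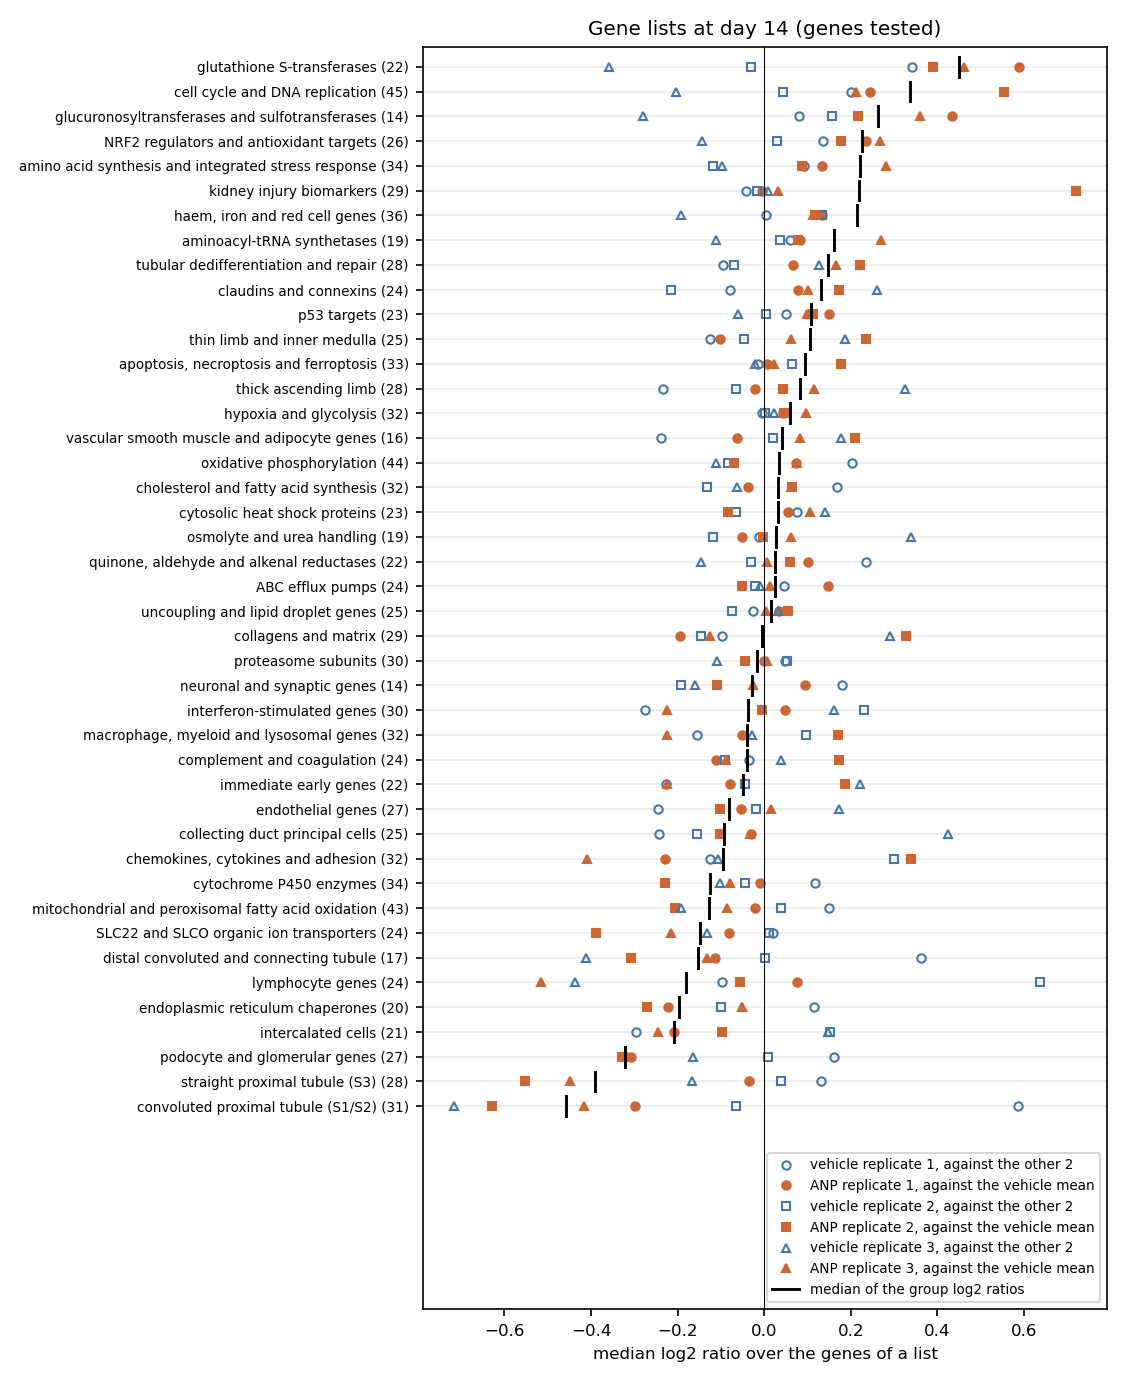
For each of 43 gene lists (genes tested in parentheses) the black bar is the median log2 ratio of ANP to vehicle at day 14, filled orange marks are the medians of each ANP array against the vehicle mean, and open blue marks those of each vehicle array against the other two. The ANP and vehicle marks do not overlap for 8 lists, and ANP replicate 2 stands apart for kidney injury biomarkers.

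Markers of nephron segments of the cortex lay below 0 in the same arrays. In dissected whole tissue, fewer cells of a type, less RNA per cell and less cortex in the piece cannot be told apart. Podocyte and glomerular genes had a median of -0.32 with 24 of 27 below 0. The ANP arrays gave -0.31, -0.33 and -0.31 and the vehicle arrays 0.16, 0.01 and -0.16, without overlap, and no member passed. The part of this shift in the calls above was not tested. Wt1 read -1.71, -2.62 and -3.46 with vehicle and -3.49, -3.93 and -4.40 with ANP (-1.34 ± 0.38), and Nphs1 (nephrin) read -0.57, -1.32 and -2.30 and -1.93, -2.65 and -2.85 (-1.08 ± 0.42). In Nphs1 vehicle replicate 3 lay among the ANP arrays, while Wt1 did not overlap.

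Convoluted proximal tubule (S1/S2) genes had a median of -0.46, with 26 of 31 below 0 and none past the threshold. Here the vehicle arrays spread more widely than the treated ones, at 0.59, -0.06 and -0.72 against -0.30, -0.63 and -0.42. The glucose transporter Slc5a2 read 5.49, 4.29 and 3.34 with vehicle and 3.61, 3.58 and 2.83 with ANP (-1.03 ± 0.43). Pck1, of glucose synthesis, was at -1.23 ± 0.36 and the creatine synthesis gene Gatm at -1.33 ± 0.42, while the organic anion carriers Slc17a3 and Slc22a12 were at 1.0 ± 0.25 and 0.66 ± 0.19, both without overlap. Segment genes of the same cells lay on both sides of 0. In the distal nephron, calbindin (Calb1) was at -1.36 ± 0.55 and the intercalated cell exchanger Slc26a4 (pendrin) at -1.37 ± 0.41. As a set these segments shifted less. The median was -0.15 for the 17 distal convoluted and connecting tubule genes tested, of which 5 were positive. It took the other sign, at 0.018, when vehicle replicate 1 was left out. For the 21 intercalated cell genes it was -0.21, and 3 were positive. Neither list held a gene past the threshold.

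Straight proximal tubule (S3) genes, of the segment that belongs to this zone, had a median of -0.39 with 24 of 28 below 0. The ANP arrays gave -0.04, -0.55 and -0.45 and the vehicle arrays 0.13, 0.04 and -0.17. ANP replicate 1, which lay near the vehicle arrays, shared their slide, and the other ANP arrays did not. Animal and slide cannot be told apart here. Slc7a12 read 4.42, 3.44 and 4.24 with vehicle and 3.01, 1.89 and 2.34 with ANP (-1.62 ± 0.42), and the organic anion carrier Slco1a1 was at -1.5 ± 0.70, neither past the threshold. The 43 genes of fatty acid oxidation had a median of -0.13.

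Thick ascending limb genes had a median of 0.08 over 28, which was -0.022 within the shared slide, and Cldn14 was at -1.1 ± 0.65. Collecting duct principal cell genes had a median of -0.09 over 25, with Aqp2, the vasopressin-regulated water channel, at -0.43 ± 0.31. None of either list passed. Lymphocyte genes lay lowest in ANP replicate 3, with medians of 0.08, -0.06 and -0.51 for the treated arrays and -0.10, 0.64 and -0.44 for the vehicle arrays, and chemokine, cytokine and adhesion genes gave -0.23, 0.34 and -0.41. For these the difference among animals of 1 group was as wide as that between groups. Fads2 of polyunsaturated fatty acid synthesis was at 0.93 ± 0.18 and Agpat2 of triglyceride synthesis at 0.58 ± 0.14, both without overlap. Of the 57 genes that passed, 14 belong to a list and 43 to none.

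Beyond the genes named above, the rule for wide shifts without overlap that did not pass gave Anxa13 at -2.70 ± 0.76, Hrg at -2.45 ± 0.67, Mpped1 at -2.33 ± 0.46, Ccn6 at -2.27 ± 0.50, Cpne4 at -1.96 ± 0.66, Tnfrsf11b (osteoprotegerin) at -1.79 ± 0.47, Tex101 at -1.94 ± 1.16 and Fcrla at -1.65 ± 0.51 (limma adjusted p from 0.0647 to 0.525). In Tex101 vehicle replicate 2 stood far above the rest, at -4.64, -1.21 and -3.68 against -4.89, -5.06 and -5.39.

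Probes without a gene name gave little at this day. Of 20652 tested apart, 0 were higher and 1 lower by limma at an adjusted p under 0.05 (0.00484%), with 1959 at an unadjusted p under 0.05. The 1 probe, A_44_P255424, read -4.73, -3.15 and -3.58 with vehicle and -8.11, -7.43 and -7.55 with ANP (limma adjusted p = 0.0371). With ANP it was not well above background, and against the floor of the ANP arrays it was 3.79-fold lower. When all 41223 probes were tested together, 51 were higher (0.124%) and 18 lower (0.0437%), of which 16 and 8 had no gene name. Among these C_CA_B0070 read 2.91, 2.62 and 2.72 with vehicle and 4.87, 4.68 and 4.89 with ANP (2.06 ± 0.24; limma adjusted p = 0.0346). A_64_P059461 read -2.34, -2.53 and -2.52 with vehicle and -3.56, -4.25 and -4.20 with ANP (-1.54 ± 0.23; limma adjusted p = 0.0431). In that test other probes of genes that were not called also passed, and those named here were chosen after their values were seen. Among them were Gsta3, Acaa1b (2.03), Aloxe3 (1.11), E2f1 (0.92), Anxa7 (0.82) and Blvrb (0.75) on the higher side, and Lrp2 (megalin, -0.82) on the lower side.

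The same genes were read at day 28 in other animals of the same dose. There all vehicle arrays were on 1 slide and all ANP arrays on another, scanned on another day. Treatment, slide and scan day therefore cannot be told apart at day 28. Of the 43 higher genes 42 were above 0, as were 53.4% of all genes, and 34 passed there, where 4.45% of all genes were called higher. Of the 14 lower genes all 14 were below 0 and 10 passed, where 2.63% were called lower. These calls share their estimate of the spread with day 14. From the 6 arrays of day 28 alone, 27 of the 43 and 8 of the 14 passed, where 1.81% of all genes were called in each direction. Asns read 3.47 ± 0.30 at day 28 against 1.69 ± 0.30 at day 14, and Itpka 2.49 ± 0.19 against 1.5 ± 0.19. Gpnmb read 0.05 ± 0.26 at day 28 (limma adjusted p = 0.927) against 1.55 ± 0.26 at day 14, and Prrt4 -0.15 ± 0.10 against 0.57 ± 0.10. The difference between the days was tested for every gene, and 0 of 11853 passed by limma (smallest adjusted p = 0.252; 1098 genes at an unadjusted p under 0.05), with 1.78 ± 0.42 for Asns and -1.5 ± 0.36 for Gpnmb (limma adjusted p = 0.377 for both). Clu and Havcr1 were at -0.22 ± 0.21 and -0.03 ± 0.54 at day 28.

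**Figure D5:**
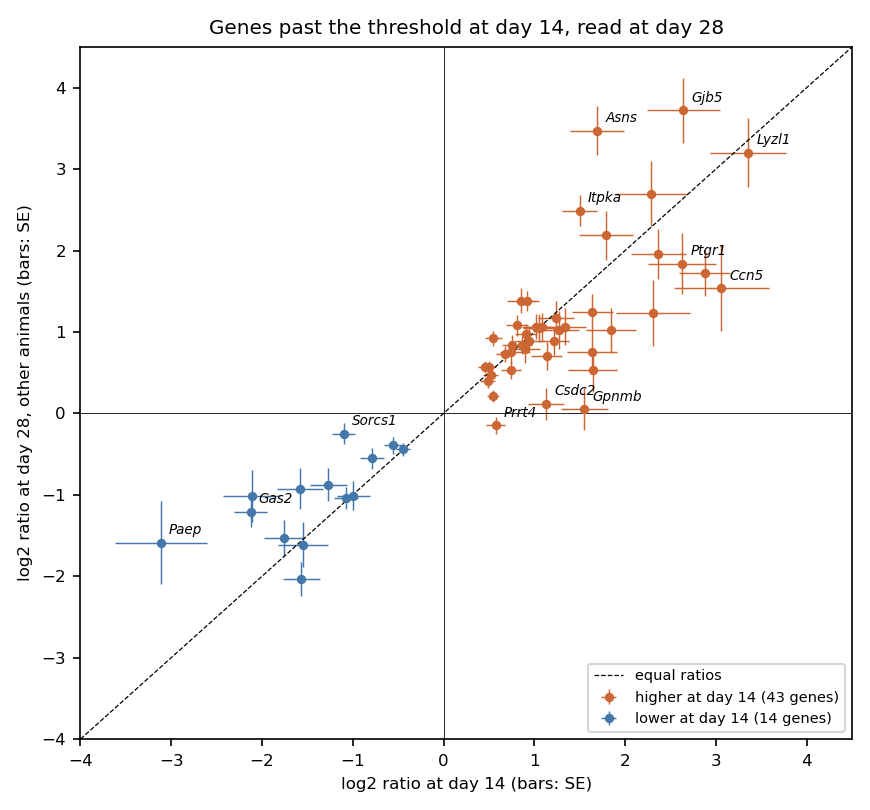
Log2 ratio of ANP to vehicle at day 14 (x axis) and at day 28 in other animals (y axis) for the 57 genes past the threshold at day 14, with bars of 1 SE from the 12-array fit and a dashed line of equal ratios. Of the 43 higher genes 42 lie above 0 at day 28, and all 14 lower genes lie below 0. At day 28 the vehicle and ANP arrays were on separate slides.

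In the pools of the earlier days, which carry 1 array per group and no test, 34 of the 43 higher genes were above 0 at day 1 and 41 at day 7, where 45.5% and 56.7% of all genes were above 0. Of the 14 lower genes 11 and 13 were below 0. The median log2 ratios of the higher genes were 0.89 at day 1, 0.77 at day 7, 1.13 at day 14 and 1.02 at day 28. Those of the lower genes were -0.39, -0.54, -1.41 and -1.01. Days differ in animals, and for days 1 and 7 in pooling. The genes were also chosen by their day 14 values, which favours the size at that day, so these medians do not rank the days.

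The calls rested on few animals. With 1 array left out in turn, the counts of higher and lower genes became 46 and 10 without vehicle replicate 1, 2 and 1 without vehicle replicate 2, 28 and 26 without vehicle replicate 3 and 14 and 10 without ANP replicate 1. Without ANP replicate 2 they became 3 and 4, and without ANP replicate 3 they became 0 and 1. Gas2 passed in all 6 of these fits, Shcbp1l in 5, and Panx2, Sod2, Sorcs1 and Qrfpr in 4. ANP replicate 1 was on the slide of the vehicle arrays, and the other two ANP arrays on another slide. ANP replicate 1 alone, against the vehicle arrays of its own slide, gave a median of 98.0% of the full log2 ratio for the higher genes (76.2% to 133%) and 97.6% for the lower genes (59.4% to 128%). That array took part in choosing these genes, and their direction on it was fixed by the lack of overlap. With a block for the slide 0 genes passed by limma (smallest adjusted p = 0.157), on 1 ANP array.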

How the data were processed

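Outer medulla RNA was hybridised to one-colour Agilent rat arrays and read with Agilent's software, named in the submitters' processing notes as Feature Extraction 10.7. The authors deposited background-corrected spot intensities on a linear scale, per the file headers. The authors' deposited value table held a ratio, the processed signal over the array's 75th percentile, as a comparison with the scanner files showed. Here log2 of the deposited intensity was taken relative to that percentile, and control spots and outlier spots were left out.

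Probes were named by RefSeq accession from a table of GRCr8. A gene was represented by its brightest probe among those well above background on all arrays of 1 or more of the 4 groups of days 14 and 28. limma 3.58.1 (R 4.3.3; lmFit, eBayes) was fitted to these 12 arrays as a mean for each group. The Benjamini-Hochberg adjustment covered all 11853 genes, at a threshold of 0.05. Unnamed probes were tested apart. The alternatives changed the normalization, background correction, source table, filter, probe rule, fit, slide, replicate block, threshold and the arrays left in.

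The members and the 43 gene lists were chosen with earlier results of these data known. Named were genes past the threshold, the 10 widest shifts without overlap in each direction that did not pass, up to 6 other members of a list by size, a panel of kidney and stress genes, and up to 4 unnamed probes in each direction. Genes outside this rule are marked as chosen after their values were seen. Some results are not reported here. The fit was tested on simulated data.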

Additional observations from a re-analysis of the deposited data

How the results depend on the processing

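The counts of higher and lower genes, 43 and 14 as reported, were 70 and 51 with normexp and quantile normalization, 21 and 7 with no filter on dim probes, 12 and 8 from the 6 arrays of day 14 alone, 88 and 45 with the slide as a random block, and 0 and 0 with the slide as a fixed block or within the shared slide, where 1 ANP array remains. The random block had an estimated correlation within a slide of -0.089, so its counts of 88 and 45 make no allowance for a shared slide effect. Lower genes numbered 23 with quantile normalization and 22 with the trend and robust options of eBayes. At thresholds of 0.1 and 0.01 the counts were 109 and 56, and 1 and 1. With 1 array left out they ran from 0 to 46 for higher genes and from 1 to 26 for lower genes. With no filter 0 unnamed probes were lower. Replicate numbers name separate animals and were not taken as pairs. Deviations of same-numbered arrays correlated at 0.13, 0.07 and 0.14, above those of differently numbered arrays, which ran from -0.18 to 0.05. Whether same-numbered arrays share a source of variation was not tested. The replicate block gave 23 and 13 calls and kept 26 of the 57.

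Among genes, signs turned for uncalled ones, and the lack of overlap largely fixes the sign of called ones. With the slide as a fixed block and within the shared slide, Lcn2 was at -0.052, Gclc at 0.0043, Cdkn1a at 0.17, Umod at 0.061, Akr1b10 at 1.26, Gpx2 at -0.30 and Krt19 at -0.20. With the slide as a random block Gclm was at -0.070 and Ucp1 at 0.026. With the array median as the scale Gclc was at 7.53e-05, Ucp1 at 0.0010 and Umod at 0.0054. Umod was at 0.023 with quantile normalization and at 0.034 with normexp, and Cdkn1a at 0.37 from the mean of its probes. With 1 array left out, Gclc ran from -0.10 to 0.052, Gclm from -0.30 to 0.24, Cdkn1a from -0.14 to 0.053, Ucp1 from -0.18 to 0.16 and Umod from -0.049 to 0.030. Over all settings Gclm reached 0.62. Of the 43 list medians, 9 took the other sign with the slide as a fixed block (thick ascending limb -0.022, kidney injury -0.0063, lymphocyte 0.075, neuronal 0.095), 10 without ANP replicate 3 and 4 with normexp. The cause was not tested. Folds of dim probes depend on the floor and the background correction, and 3 arrays in each group limit the precision.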

Other observations

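Some genes were set apart on 1 array of a group at day 14. ANP replicate 1 was the only ANP array on the slide of the vehicle arrays, so for it animal and slide cannot be told apart. Among the 11338 genes well above background on all 6 arrays, those with 1 array at least 2.0 log2 units from the nearest of its group numbered 11 above and 4 below for ANP replicate 1, 4 and 5 for ANP replicate 2, and 3 and 2 for ANP replicate 3. In the vehicle group they numbered 5 and 6 for replicate 1, 1 and 8 for replicate 2, and 6 and 7 for replicate 3. The genes that follow were chosen after their values were seen.

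Fam111a, a protease that restricts viral replication, read 2.13, 1.22 and 1.55 with vehicle and -4.16, 1.59 and 2.71 with ANP, far lowest in ANP replicate 1. Slpi, a secreted inhibitor of leukocyte proteases, read 0.62, 1.88 and 0.18 with vehicle and 0.51, 1.01 and -4.57 with ANP, lowest in ANP replicate 3. Serpina3n, another protease inhibitor, was lowest in the same animal, at 1.2, 1.75 and -2.27 on the ANP arrays against -0.98, -0.78 and -0.74.

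Ccl2, the monocyte chemokine, read -1.41, -0.55 and -2.25 with vehicle and -2.54, 0.80 and -2.23 with ANP, highest in ANP replicate 2. That animal also had the highest Havcr1 of the 6. Ubd, a ubiquitin-like modifier, read 0.63, -3.03 and -0.12 with vehicle and 0.36, -4.61 and -0.15 with ANP, and Tmem125 read 0.04, -3.17 and 0.44 and 0.85, -3.89 and 0.32. Both were low in the same pair of animals, vehicle replicate 2 and ANP replicate 2.

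Ing3, a chromatin reader, read -0.20, -3.43 and -0.13 with vehicle and -0.27, -0.15 and -0.34 with ANP, and vehicle replicate 2 alone was low. Rbp4, the plasma carrier of retinol, read 3.55, 2.91 and 1.86 with vehicle and 4.68, 0.90 and 1.30 with ANP, highest in ANP replicate 1.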
